A study of Homo sapiens with 8 samples.

Results

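The genes examined here build, modify or bind the extracellular matrix, or join cells to each other. They were taken from the deposited list of m6A peaks by gene symbol: collagens, laminins and nidogens, fibrillins, fibulins and LTBPs, integrins, the cadherin superfamily, metalloproteinases and their inhibitors, collagen-modifying enzymes, thrombospondins and tenascin, syndecans and glypicans, and 6 named glycoproteins (AGRN, FN1, HSPG2, VCAN, SPARC and PXDN). The members were 24 of the 1103 gene IDs in the list, with 38 of its 1262 peaks. RefSeq holds 309 protein-coding genes that fit the same symbol rule, so 7.77% of them (Wilson 95% interval 5.27% to 11.3%) had a listed peak. Of all 20052 protein-coding genes, 935 (4.66%) had one, whether or not these cells express them. The rule goes by the start of a symbol, and 12 of the 309 belong to other families (such as ITGB3BP, SDCBP and LOXHD1). None of the 12 is a member, and they are left out where genes are counted by role.

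MeRIP-seq had been performed on ARPE19 cells, a human retinal pigment epithelium (RPE) line, carrying a lentiviral shRNA against METTL3 (sh-METTL3) or a scramble control (sh-Control). Both kinds of cells received LPS, a bacterial cell wall component that triggers inflammation, at 1 μg/ml for 24 h, so that all 8 libraries are from stimulated cells. Each genotype has 3 libraries of RNA enriched by an antibody against m6A (IP) and 1 library of RNA without that step (input). The cells are stably selected populations of a single line and not primary RPE. No unstimulated library is among the samples.

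A peak is a stretch of transcript with more IP than input reads, and its fold enrichment is the ratio of the 2. The authors computed both over pooled libraries, so each peak has a single value with no replicate spread, and the depth of the libraries is unknown. No m6A level of sh-METTL3 was therefore set against sh-Control, and the groups were not tested. The list holds peaks that the authors selected by their own comparison of the groups. A gene without a listed peak may still carry m6A.

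The extracellular matrix is a network of collagens, laminins and proteoglycans on which cells rest, and integrins tie it to the cytoskeleton. RPE cells stand on Bruch's membrane, a layered matrix whose basement membrane they help to make, and its remodelling accompanies retinal disease. METTL3 is the catalytic subunit of the complex that writes m6A on mRNA, a mark that reader proteins use to set the stability and translation of a transcript.

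The enrichment of the members covered a wide range, from 1.28 for a peak of AGRN to 142 for the peak of ADAM10. Their median was 5.80 (95% interval 3.85 to 10.2, n = 38 peaks), and that of all listed peaks was 8.425 (7.79 to 9.54, n = 1262), so the intervals overlap. Among the members, 13 peaks (34.2%, Wilson 95% interval 21.2% to 50.1%) had an enrichment of at least 10, and 576 (45.6%) of all listed peaks did. An enrichment under 2 was found for 4 member peaks (10.5%, 4.17% to 24.1%) and for 53 (4.20%) of the list. The intervals cover counting error only and treat peaks as independent, which peaks of a single gene are not. The highest values belonged to the sheddase ADAM10, both chains of type VIII collagen and the membrane protease MMP14. The lowest belonged to AGRN, COL4A2 and LTBP2, all parts of the matrix itself.

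**Figure D1:**
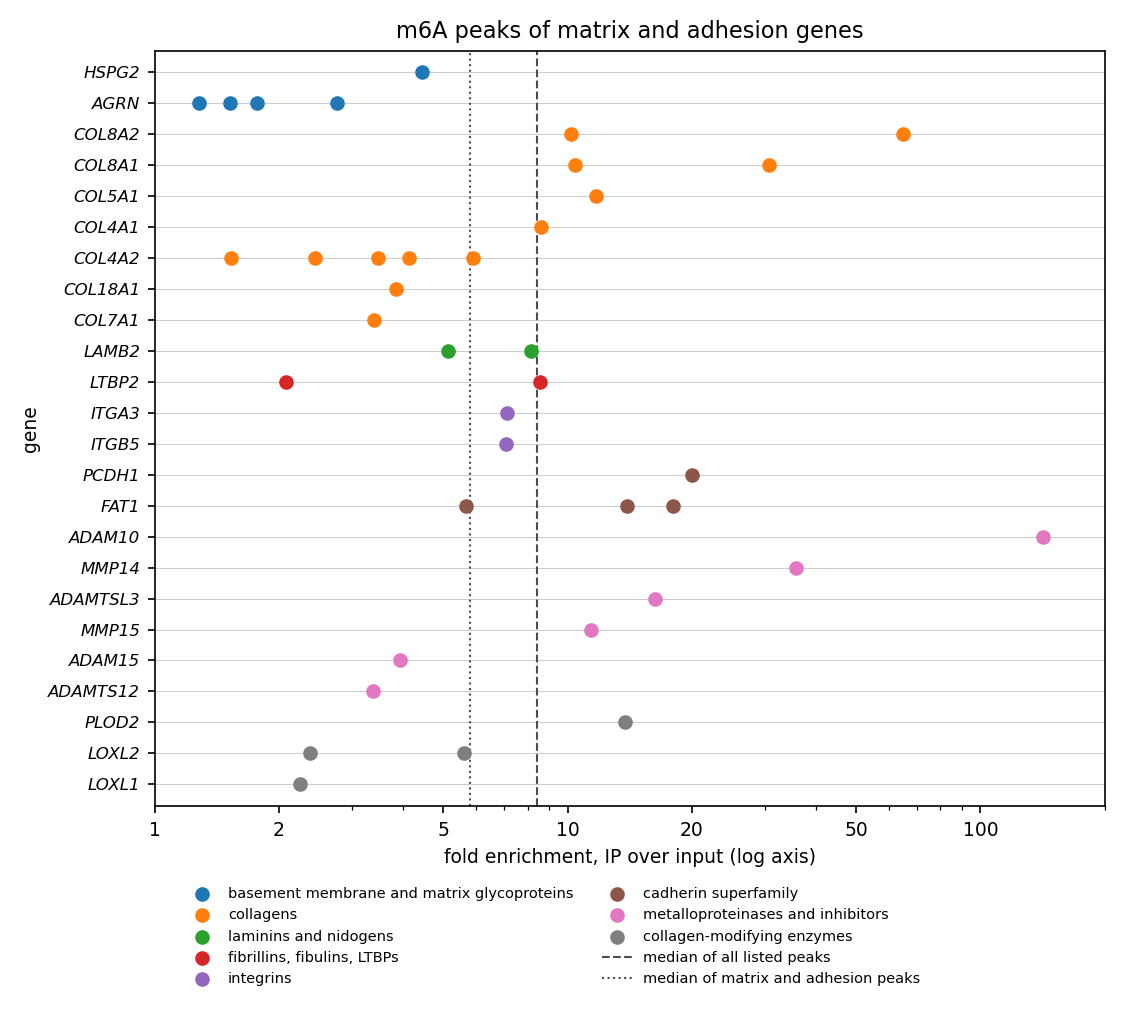
Fold enrichment of IP over input (log axis) of the 38 peaks of the 24 matrix and adhesion genes, 1 row per gene and 1 point per peak, coloured by role. The dashed line is the median of all listed peaks (8.425) and the dotted line that of the points shown (5.80). ADAM10 (142) and COL8A2 (65.1) lie far to the right, and all 4 peaks of AGRN lie under 3.

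Of the matrix glycoproteins, 2 of 6 had a listed peak, and FN1, VCAN, SPARC and PXDN had none. Agrin (AGRN, ENSG00000188157), a heparan sulfate proteoglycan of basement membranes, had 4 peaks in the 3′ part of its gene. In order from the 5′ end their fold enrichments were 1.77, 1.52, 2.76 and 1.28. The strongest, at chr1:1050459-1050773, lay only at percentile 13.9 of the list, and the weakest at percentile 0.2. The peak p-values of IP over input were small all the same, from 3.1e-06 to 7.9e-23. Perlecan (HSPG2), the other large basement membrane proteoglycan, had 1 peak of 181 nt with an enrichment of 4.44 at chr1:21824080-21824260. This peak shares 177 nt with a peak assigned to LDLRAD2 on the opposite strand, whose enrichment was 4.51.

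Collagens gave the most genes and peaks of any role, with 13 peaks in 7 of 44 genes and a median enrichment of 5.91. The roles differ in size, so such counts do not rank them. Of all protein-coding genes, 4.66% had a listed peak, and no role was tested against that share. The collagen values ran from 1.53 for COL4A2 to 65.1 for COL8A2. COL8A1 and COL8A2 encode the chains of type VIII collagen, a network-forming collagen found in Bruch's membrane and in Descemet's membrane of the cornea. COL8A2 (ENSG00000171812) had an enrichment of 65.1 at chr1:36096732-36097990, rank 47 in the list, and 10.2 at a second peak 388 nt further 3′. COL8A1 (ENSG00000144810) showed the same layout, with 30.7 at chr3:99794253-99795391 and 10.4 at a peak 239 nt further 3′. In both genes the upstream peak was the wider, with 1259 nt for COL8A2 and 1139 nt for COL8A1. The peaks of each gene add up to nearly the same length, 1858 nt in COL8A2 and 1859 nt in COL8A1. The 2 chains thus have all 4 of their peaks above the list median.

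COL4A1 and COL4A2, the neighbouring genes for the main chains of type IV collagen, the network of every basement membrane, had 6 peaks between them. COL4A2 (ENSG00000134871) had 5 peaks, a number that only 3 of the 1103 gene IDs reached or passed. From the 5′ end the enrichments were 4.12, 1.53, 3.47, 2.44 and 5.91, all under the list median. The last and highest also lies in the span of COL4A2-AS1, on the opposite strand. The second of these had the weakest peak p-value among the members, 0.00019. COL4A1 (ENSG00000187498) had a single peak with an enrichment of 8.62 at chr13:110169755-110181386. It is the widest of the members with 1708 nt in 15 blocks, the exon pieces of a peak once introns are removed. Of all listed peaks, 2 had 15 or more blocks. The many blocks of type IV collagen peaks stand beside the single block of each type VIII peak.

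The remaining collagens had 1 peak each, all close to the 3′ end of the gene. COL5A1, which sets the diameter of collagen fibrils, reached 11.7, and its peak lay 300 nt from the end and within the span of the non-coding gene LOC101448202. COL7A1, the collagen of anchoring fibrils, had 3.39 at 30 nt from the end. COL18A1, a basement membrane collagen and the precursor of endostatin, had 3.85 at 897 nt from the end. Its peak shares most of its length with a peak of SLC19A1 on the opposite strand, with an enrichment of 3.86. The list holds 50 such pairs of opposite-strand peaks, and the higher value was within 1.1 times the lower in 19 of them. Whether strand was used in counting is not given in the sources used here, so the values of HSPG2 and COL18A1 cannot be assigned to 1 strand.

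Among the laminins and nidogens, 1 of 14 genes was listed. LAMB2, the beta 2 chain of laminin, had enrichments of 8.17 and 5.14 at peaks 299 nt apart, the lower one nearer the 3′ end. Among fibrillins, fibulins and LTBPs, 1 of 11 was listed. LTBP2, a protein bound to fibrillin microfibrils, had peaks at the opposite ends of its gene. The peak 427 nt from the 5′ end had 2.08, and the one 1572 nt from the 3′ end had 8.58. No thrombospondin or tenascin (0 of 5) and no syndecan or glypican (0 of 10) had a listed peak. In groups this small, a count of 0 does not stand apart from the 4.66% of all protein-coding genes.

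Of 26 integrin genes, 2 had a peak, with nearly equal enrichment. ITGB5, whose protein pairs with the alpha V chain and serves RPE cells in binding photoreceptor outer segments, had 7.09 over 750 nt in 4 blocks (chr3:124773760-124809156). ITGA3, a chain of a laminin receptor, had 7.14 over 241 nt at the very start of the gene (chr17:50055968-50056259). This peak begins before the RefSeq start of ITGA3.

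For ITGB5, part of a peak block could be read in RefSeq's promoter table (GRCh38.p14), because the window of a non-coding gene, LOC124909422, on the same strand covers it. It is shown because it is the transcribed sequence of a stretch with an m6A peak. The 238 bases at chr3:124796388-124796625, minus strand, lie in block 2 of 4 from the 5′ end of the peak, a block of 430 nt. The capitals mark GGAC, the core of the usual m6A motif, searched on the transcribed strand only.

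ITGB5 peak, part of block 2: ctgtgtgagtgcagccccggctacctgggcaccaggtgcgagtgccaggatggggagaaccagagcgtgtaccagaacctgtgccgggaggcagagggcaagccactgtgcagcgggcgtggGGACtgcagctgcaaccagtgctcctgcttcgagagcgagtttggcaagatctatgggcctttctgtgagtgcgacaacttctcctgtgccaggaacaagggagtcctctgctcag

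GGAC occurs once, at base 123 of the stretch, and there it is followed by T, so that the longer GGACT overlaps it. Over the same 238 bases of all 35116 promoter windows, 57.0% hold GGAC and 20.2% hold GGACT. Promoter windows need not be exon sequence, so these shares are not a background rate for peaks. The match is a description and does not place the methylated base.

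In the cadherin superfamily, 2 of 98 genes were listed, with a median of 15.95 over 4 peaks. FAT1 (ENSG00000083857), a giant atypical cadherin, had 3 peaks, of 18.0, 13.9 and 5.69 from the 5′ to the 3′ end. The enrichment thus fell along the gene, and the first peak, at chr4:186707620-186708579, is 960 nt wide. PCDH1, a protocadherin of epithelial cell contacts, had 20 over 480 nt near the middle of its gene. Their values lay above those of both integrins, except for the last peak of FAT1.

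Metalloproteinases and their inhibitors contributed 6 of 72 genes, each with 1 peak and with a median enrichment of 13.85. No TIMP, the inhibitors of these enzymes, was among them. ADAM10 (ENSG00000137845), which cuts cadherins, Notch and other proteins from the cell surface, had 142 at chr15:58591746-58592316. This is rank 13 of all listed peaks, on a peak of 571 nt. MMP14 (ENSG00000157227), a membrane protease that degrades collagen and activates pro-MMP2, had 35.8 at chr14:22846524-22847752. The MMP14 peak is 1229 nt wide and ends 6 nt before the end of the gene. MMP15, of the same membrane-bound class, had 11.4 over 360 nt.

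The remaining 3 differed among themselves. ADAMTSL3, a relative of the ADAMTS proteases that has no catalytic domain, had 16.3 over 929 nt. ADAMTS12, an active secreted protease of the matrix, had 3.38, and its peak lay 459 nt from the 5′ end of the gene. The membrane-anchored disintegrin ADAM15 had 3.92 in a peak that ends with the gene. That peak also lies in the spans of DCST1-AS1 and of the readthrough gene ADAM15-EFNA4.

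Collagen-modifying enzymes were 3 of 11 listed. PLOD2, the lysyl hydroxylase that prepares stable collagen crosslinks, had 13.8 at chr3:146070369-146071168. LOXL2, a lysyl oxidase that crosslinks collagen, had 5.61 and 2.38 at neighbouring peaks, the higher one on the 5′ side. LOXL1, which crosslinks elastin, had 2.25 in a peak of 150 nt that lies 212 nt from the 5′ end and within the span of LOXL1-AS1. The PLOD2 peak thus lay above the peaks of both oxidases, and with 631 nt it was also the widest of the 3 genes.

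The members' peaks lay mostly towards the 3′ end. The centre of a peak was placed on the gene span from 0 at the 5′ end to 1 at the 3′ end, introns included, since no exon annotation was used. The median place was 0.871 (95% interval 0.788 to 0.945) for the members and 0.785 (0.760 to 0.810, n = 1197 peaks of named genes) for the list. In the last 20% of the span lay 24 of 38 member peaks (63.2%, Wilson interval 47.3% to 76.6%) and 582 (48.6%) of the list. Within 2000 nt of the 3′ end, in contrast, the shares were close, with 13 member peaks (34.2%) and 386 (32.2%) of the list. The peaks of LOXL1, LTBP2, ADAMTS12 and ITGA3 and the first of COL4A2 were the 5 within 1000 nt of the 5′ end (13.2%, list 17.3%). None of these 5 exceeded the 7.14 of ITGA3.

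**Figure D2:**
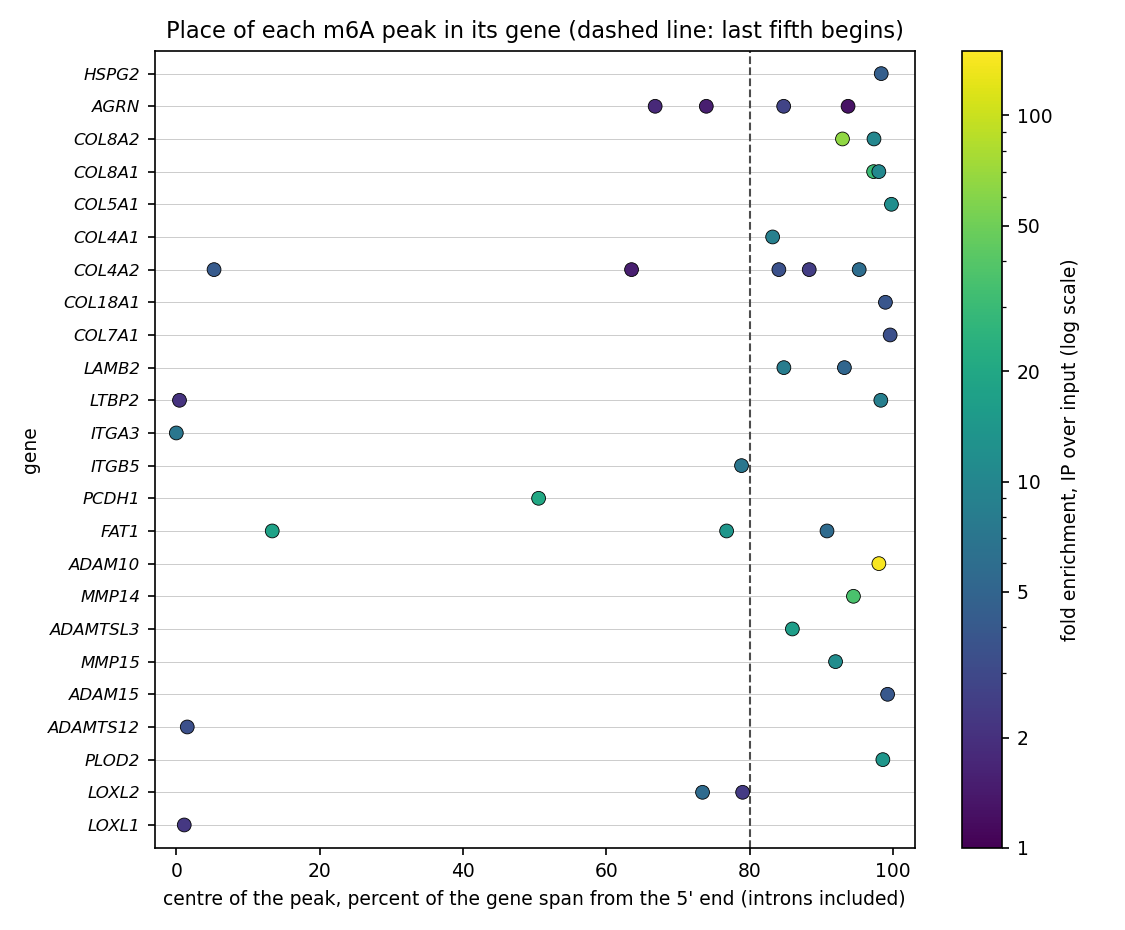
Centre of each of the 38 peaks as percent of the gene span from the 5′ end (introns included), 1 row per gene, coloured by fold enrichment on a log scale. The dashed line marks the start of the last 20%, which holds 24 peaks, and 6 peaks lie in the first 20%.

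Several peaks per gene were more common among the members than in the list: 8 of 24 genes (33.3%, Wilson interval 18.0% to 53.3%) against 121 of 1103 gene IDs (10.97%, 9.26% to 12.95%). The IDs of the list are not a like set, since they include non-coding genes and 57 IDs without a name. Gene length and number of exons were not matched, so the difference cannot be tied to the role of the genes. Of the 21 listed matrix and adhesion genes outside the symbol rule, described further below, only FLNA and FLNC had several peaks. The 8 members with several peaks were AGRN, COL4A2, COL8A1, COL8A2, FAT1, LAMB2, LOXL2 and LTBP2. Within a gene the peaks differed by up to 6.38-fold (COL8A2) and by as little as 1.59-fold (LAMB2), with a median of 3.06-fold (list 2.37-fold, n = 116 named genes). The peak nearest the 3′ end was the most enriched in 2 of the 8 genes, COL4A2 and LTBP2, and in 59 of the 116 (50.9%). The most enriched peak was also the single widest in 5 of the 8 genes and in 82 of the 116 (70.7%).

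**Figure D3:**
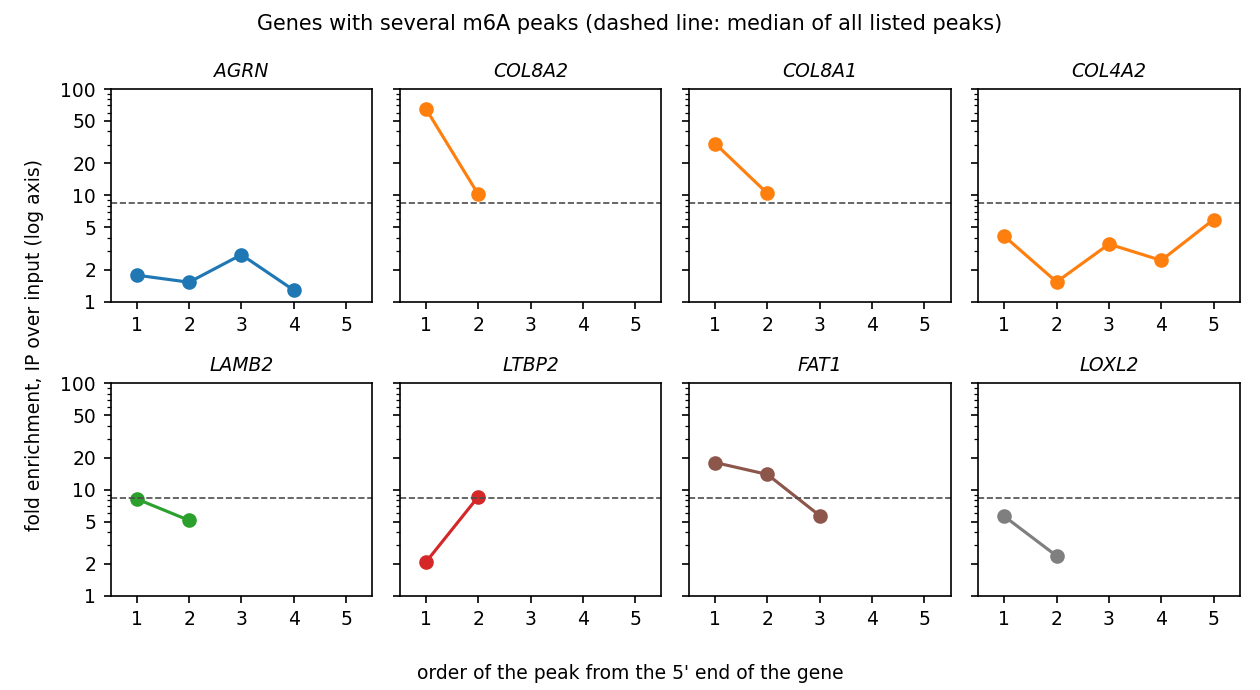
Fold enrichment of IP over input (log axis) of the peaks of the 8 genes with several peaks, in order from the 5′ end, with the median of all listed peaks as a dashed line (8.425). COL8A2, COL8A1, FAT1, LAMB2 and LOXL2 fall from their first to their last peak, LTBP2 rises from 2.08 to 8.58, and COL4A2 and AGRN go up and down.

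Peak width, the sum of a peak's blocks, ranged from 121 nt (AGRN) to 1708 nt (COL4A1). Its median was 464.5 nt (95% interval 241 to 631) for the members and 419 nt (391 to 421) for the list. The share with several blocks was 50% (19 of 38, Wilson interval 34.8% to 65.2%) against 35.8% (452 of 1262). Enrichment went with width: Spearman's rho across peaks was 0.748 for the 38 members and 0.719 for all 1262, where all peaks share the same pooled libraries and are not independent. Against the other listed peaks of similar width, in 5 classes of width, 26 of 38 member peaks lay under the median of their class. A gene with several peaks can count more than once among the 26, as AGRN and COL4A2 do. From the narrowest class (up to 240 nt) to the widest (from 720 nt), the members' medians were 2.315, 6.525, 8.17, 7.025 and 13.9, over 12, 2, 7, 6 and 11 peaks. Those of the others were 2.81, 5.935, 9.54, 16.15 and 26.8. The members were thus lower in 4 classes and higher in the second, where they had only 2 peaks. In the narrowest class 8 of the 12 member peaks lay under the median of the others. All 4 peaks of AGRN (1.28 to 2.76) are among those 8, so the direction in that class rests on 1 gene.

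**Figure D4:**
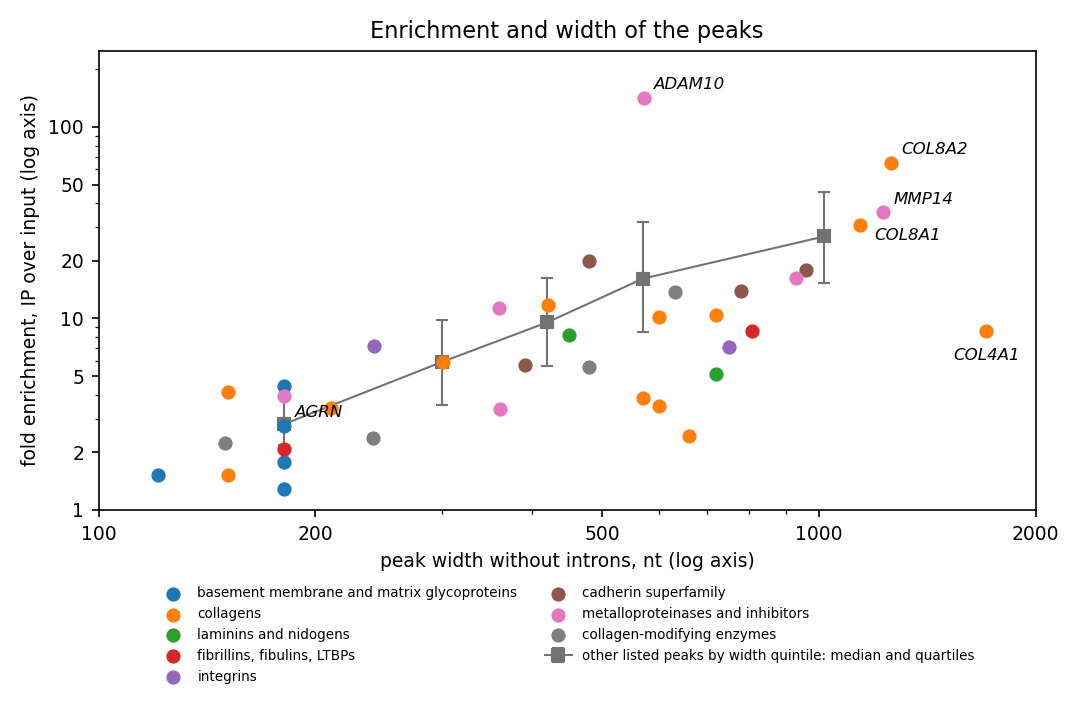
Fold enrichment against peak width without introns (both log axes) for the 38 member peaks, coloured by role. Grey squares and bars give the median and quartiles of the other listed peaks in 5 classes of width, and 26 of the 38 points lie under the median of their class, with COL4A1 (1708 nt, 8.62) far under it and ADAM10 (571 nt, 142) far over it.

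A further list of 137 matrix and adhesion genes outside the symbol rule had 21 genes with 25 peaks and a median enrichment of 4.02. These 21 are 15.3% of the list (Wilson 95% interval 10.2% to 22.3%), beside 4.66% of all protein-coding genes. The list was picked by hand with earlier results of these data known, so the interval is a description and not a test of its share. How many of its genes these cells express was not measured here. Focal adhesion adaptors, which link integrins to actin, had 5 of 26 genes (19.2%, 8.51% to 37.9%) and 9 peaks, from 1.45 for FLNA to 17.2 for ACTN4. Matricellular and other matrix proteins had 7 of 39 (17.9%, 8.98% to 32.7%), with 21.6 for FSTL3, a binder of activins, as the highest value. CCN2, a matricellular growth regulator, had 17.5, and CD44, the hyaluronan receptor that was placed in this class, had 3.09. Other receptors had 2 of 13, ICAM1, a receptor for leukocyte integrins, with 20 and the endocytic receptor LRP1 with 10.1.

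Cadherin adaptors and catenins had 3 of 17, all low, with CTNNB1 (beta-catenin) at 1.95 and AFDN (afadin) at 2.36 as the lowest and the highest. Collagen synthesis and processing had 2 of 15, CRTAP with 6.2 and P3H4 with 13.6, both parts of collagen hydroxylation complexes. TGF-beta ligands and receptors with their signal transducers had 2 of 10, the ligand TGFB1 with 7.43 and SMAD2 with 2.4. The TGFB1 peak shares 77 nt with a peak of HNRNPUL1 on the opposite strand (7.27), so its value cannot be assigned to 1 strand either. No tight junction gene (0 of 17) had a listed peak, again a count close to what 4.66% of all coding genes would give.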

How the data were processed

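The submitters' processing notes name CASAVA, fastp 0.19.11, MACS2 2.1.0 and the build hg38, without their roles, while the columns are named as in the R package exomePeak, so the peak caller is not settled. The deposited table has 1 row per peak over pooled libraries, with its position, blocks, strand and Ensembl gene ID. The authors' p-value of each peak (IP over input) and the authors' ratio of IP to input, given as fold enrichment, were used as deposited. Further columns hold the authors' own comparison of the groups (log2 fold change, p-value and q-value as log10) and were not used here, nor were the log10 columns that repeat the p-value and q-value of a peak. The depth is unknown.

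Positions were made 1-based. Each of 1103 IDs was named by the RefSeq gene (GRCh38.p14) on its strand that holds all its peaks, or else the only protein-coding gene that holds or touches them. A gene whose strand the tables do not give could also name an ID. In all, 1046 IDs were named, 199 of them through such a gene, among them 4 members (AGRN, COL8A1, LOXL2 and ITGA3). Members had an ID number below 223000. The members and lists were chosen with earlier results of these data known. Named were members with several peaks, the 10 highest and 5 lowest fold enrichments, the 5 widest peaks, the 6 glycoproteins where listed, and the highest and lowest gene of each class of the further list. An item that this rule names is not reported here. The other 8 members, CCN2, CD44 and genes that overlap a peak were named after their values were seen. Medians have exact binomial order-statistic intervals and shares have Wilson intervals (both 95%). The steps were tested on simulated data. Alternatives covered fold enrichment, width, p-value, 1 peak per gene, overlaps and naming. Values were computed in Python 3.11.15 with scipy 1.17.1, numpy 2.4.6 and pandas 2.3.3, and plots drawn with matplotlib 3.10.9.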

Additional observations from a re-analysis of the deposited data

How the results depend on the processing

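The 7 summary values of the member peaks (numbers of genes and peaks, median enrichment, width and place, shares with several blocks and in the last 20% of the span) were computed under 11 alternatives, 70 values in all. Of these, 66 stayed within 1.5 times the main count or within the 95% interval of the main median or share. The other 4 came from a width of at most 400 nt, which left 12 genes and 17 peaks, a median enrichment of 3.38 (main 5.80) and 47.1% of peaks in the last 20% of the span (main 63.2%). Fewer peaks pass by construction, and enrichment went with width in the whole list. Under the other alternatives the median enrichment ranged from 5.69 to 7.86. Naming only by genes with a known strand (20 genes, 29 peaks) and leaving out HSPG2 and COL18A1 (22 genes, 36 peaks) were chosen after seeing the data. No paired analysis was possible because the deposited table pools the libraries, and replicates could not be left out in turn for the same reason. The shares of peaks with GGAC and in the 3′ UTR were not run, since no genome sequence or transcript annotation was used here.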

Other observations

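Of 12 markers of RPE cells, 1 had a listed peak, OTX2, a transcription factor of RPE identity, with a fold enrichment of 36.8 (percentile 87.6 of the list). Of 6 mesenchymal and immune markers, VIM, the intermediate filament protein of mesenchymal cells, had 1.55 (percentile 1.1). The VIM peak shares 178 nt with a peak of VIM-AS1 on the opposite strand, which also had 1.55. Counts this small do not stand apart from the 4.66% of all protein-coding genes with a listed peak. A list of peaks gives no expression level, so the label of the cells was not checked with these markers.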
